A study of Caenorhabditis elegans with 2 samples.

Results

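The promoters of 395 F-box and MATH/BTB genes were examined among the promoters of 19973 nuclear protein-coding genes of Caenorhabditis elegans for binding of LSY-2, a zinc finger transcription factor. They were chosen by gene symbol: 170 genes are named fbxa, 104 fbxb, 48 fbxc, 37 math and 36 bath. Promoters began 1000 bp before the 5′ end of the annotated gene and ended 200 bp after it. A member is called bound here when a summit of the authors' optimal peak list lay in that stretch, which states a position and not an effect on the gene.

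The chromatin came from whole L2 larvae of mixed sex, strain OP367. This strain has the unc-119(tm4063) allele on chromosome III and the integrated transgene wgIs367, from which LSY-2 is expressed with GFP-FLAG at its C terminus. The 1 group held 2 biological replicates with 1 library each, so no conditions could be compared and the spread is that between the replicates. Which regulatory sequence drives the transgene was not stated, and peaks from whole animals mix all cells that made the tagged protein.

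F-box proteins hold a substrate to the SCF ubiquitin ligase, a cullin complex in which a Skp1-like protein binds the F-box. Proteins with both a MATH and a BTB domain do the same for ligases built on CUL-3. The BTB domain sits on the cullin and the MATH domain on the substrate. The members here were chosen by symbol, and which of the math and bath genes encode both domains was not examined. F-box and MATH/BTB genes have multiplied in nematodes, many of them in tandem arrays on chromosome arms. Proteins of this kind take part in protein turnover, and some F-box proteins act in the response to intracellular pathogens.

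The sequences under the 5 member peaks with the highest scores are shown first. The counts by family do not rest on them. Each is the summit with 50 bp on either side, taken from the RefSeq genome sequence of WBcel235 (ce11), plus strand, 5′ to 3′. Capitals mark any match to the 6-mer ACGCAG, to the 6-mer GAGAGA or to the 6-mer ACCGTA on either strand, overlapping matches being joined. The fbxb-58 window held none of them. These 6-mers were taken from earlier results of the same data, so their presence at peaks is a description.
bath-42 (chrIII:8164014-8164114): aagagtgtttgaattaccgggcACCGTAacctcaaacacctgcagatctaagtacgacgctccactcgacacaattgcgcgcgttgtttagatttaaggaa
fbxc-23 (chrII:13596719-13596819): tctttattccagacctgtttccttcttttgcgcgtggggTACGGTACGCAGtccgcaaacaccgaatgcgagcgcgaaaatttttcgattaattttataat
fbxb-85 (chrIII:10848972-10849072): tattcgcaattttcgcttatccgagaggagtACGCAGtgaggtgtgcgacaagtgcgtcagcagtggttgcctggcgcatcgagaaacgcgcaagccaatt
fbxb-58 (chrX:1627097-1627197): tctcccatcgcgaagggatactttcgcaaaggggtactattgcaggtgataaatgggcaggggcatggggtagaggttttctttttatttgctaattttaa
fbxa-90 (chrV:16965802-16965902): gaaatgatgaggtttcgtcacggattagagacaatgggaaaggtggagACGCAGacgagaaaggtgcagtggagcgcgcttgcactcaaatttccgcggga

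Few F-box and MATH/BTB promoters held LSY-2 summits. Of the 395 members, 26 (6.58%) had an optimal summit, where 19.2% of all protein-coding genes had one. The strongest peaks of each library, taken in the same number as the 6312 optimal peaks, reached 27 members in replicate 1 and 31 in replicate 2, against 19.3% and 19.2% of all genes. A promoter peak among the strongest of both replicates was found for 25 members, and for 17.2% of all genes. The gap to all genes was thus far wider than the gap between the replicates. No test was made of a list chosen with these results known.

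The lists of peaks and background that were the input to the IDR procedure, called relaxed here, hold 30000 peaks each and reached few more members. The pooled relaxed list had a summit in 35 member promoters (8.86%), against 34.7% of all genes. Going from the optimal to the pooled list therefore added 9 members. The relaxed lists of the single libraries reached 42 members in replicate 1 and 41 in replicate 2, where they reached 35.9% and 35.5% of all genes. No summit of any relaxed list lay in the promoters of 347 members (87.8%), while 58.2% of other protein-coding genes had none.

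**Figure D1:**
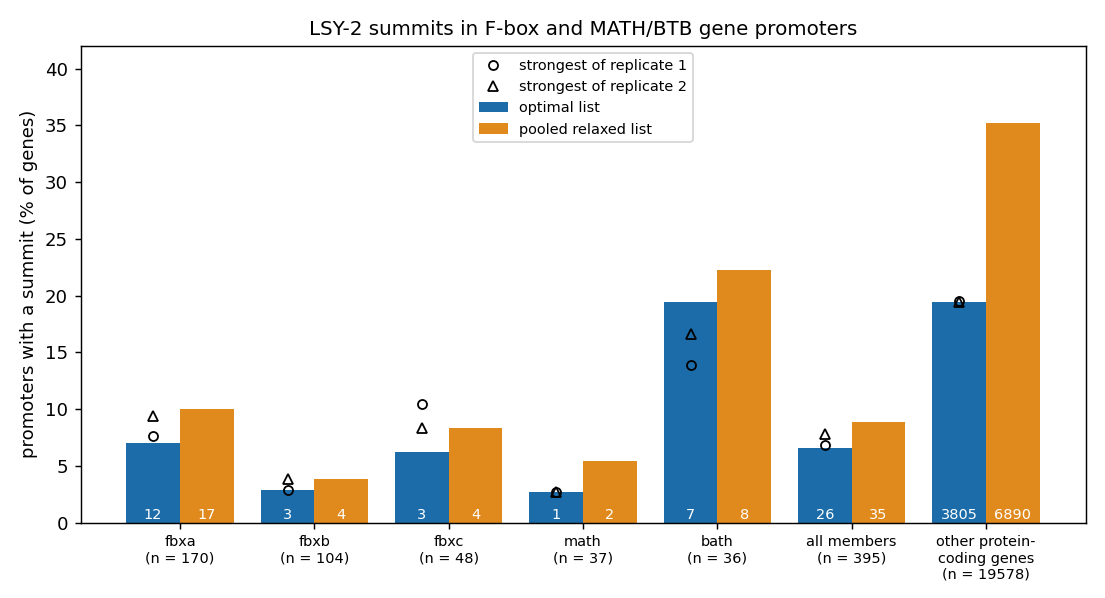
Share of promoters with an LSY-2 summit (y axis, % of genes) in each family, all members and all other protein-coding genes, with the number of genes under each name. Blue bars are the optimal list and orange bars the pooled relaxed list, with the number of bound genes at the foot, and open symbols are the strongest peaks of each replicate; bath is the one family near the other genes, with 19.4% in the optimal list.

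The counts by family ran from 1 to 12 bound genes. The optimal list held summits at 12 of 170 fbxa genes (7.06%), 3 of 104 fbxb genes (2.88%), 3 of 48 fbxc genes (6.25%), 1 of 37 math genes (2.70%) and 7 of 36 bath genes (19.4%). The bath share lay near the 19.2% of all genes, and each of the other families lay below it. In the strongest peaks of single libraries the bath count was 5 in replicate 1 and 6 in replicate 2, so 1 or 2 of its 7 genes depend on the list. The fbxa count was 13 in replicate 1 and 16 in replicate 2, and the fbxc count was 5 and 4. The pooled relaxed list had 17 fbxa, 4 fbxb, 4 fbxc, 2 math and 8 bath promoters. The bath share there was 22.2%, below the 34.7% of all genes.

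The strongest peak of each bound member ranked between 48 and 5673 of the 6312 optimal peaks. The score is the authors' own value per peak, and because its scale was not stated it is used only to order peaks. Over the 26 bound members the strongest promoter peak had a median score of 132 and a range of 65.1 to 3450, against a median of 201 over 3805 other bound genes. Of the 26 members, 8 lay above the median of 199.9 over all bound genes. The members held 25 distinct summits, because fbxa-11 and fbxa-67 shared one, fbxa-76 and fbxa-77 shared another, and fbxa-24 had 2. Of the 25 summits, 23 were among the 6312 strongest peaks of replicate 1, 22 among those of replicate 2 and 21 among both, with a match set at 200 bp. Each had a peak in the relaxed lists of both replicates. The optimal list was derived from these libraries, so that support is partly built in.

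**Figure D2:**
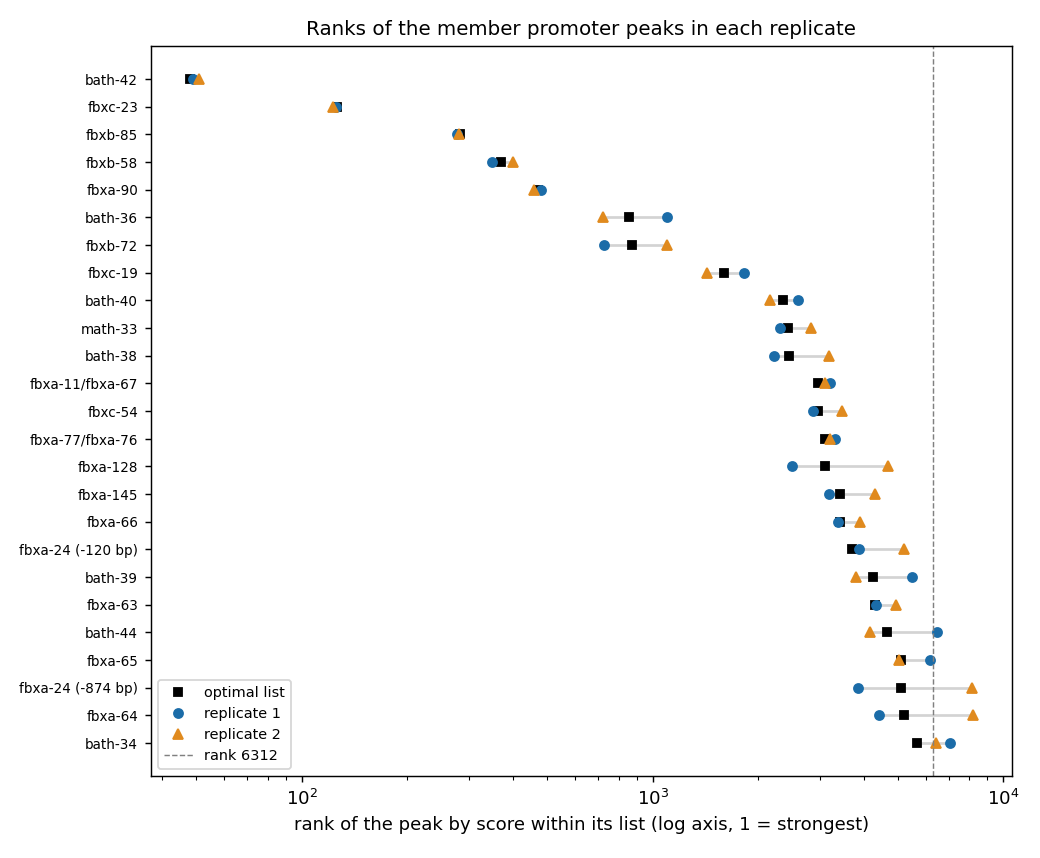
Rank by score (x axis, log scale, 1 is the strongest) of the 25 optimal peaks in member promoters, with members in rows, in the optimal list (black squares) and at the matching peak of replicate 1 (blue circles) and replicate 2 (orange triangles). The 5 strongest peaks keep nearly the same rank in every list, and the dashed line at 6312 shows the 4 peaks that fall below the strongest set in at least 1 replicate.

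Among the bath genes the strongest peak by far was at bath-42. Its score was 3450, with rank 48 of the optimal list, rank 49 in replicate 1 and rank 51 in replicate 2. The peak at chromosome III 8163760 to 8164322 had its summit 681 bp upstream of bath-42 and 309 bp from the 5′ end of prp-8, which encodes a core protein of the spliceosome. Of these genes prp-8 was the nearer one. The peak at bath-36 followed with a score of 370, rank 1099 in replicate 1 and rank 722 in replicate 2. Its summit, 85 bp upstream of bath-36 on chromosome V, also lay in the promoter of cyn-7, a cyclophilin gene, and within 200 bp of the annotated ncRNA gene Y75B12B.16.

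The other 5 bath peaks were weaker. The score was 166 at bath-40, 161 at bath-38, 89.3 at bath-39, 80.8 at bath-44 and 65.1 at bath-34. The ranks at bath-40 were 2594 in replicate 1 and 2164 in replicate 2, and at bath-38 they were 2213 and 3187. The summits at bath-38 and bath-39 lay 41 bp and 94 bp downstream of the 5′ end, in the annotated 5′ UTR, and that at bath-44 lay 722 bp upstream. The bath-34 peak ranked 7055 in replicate 1 and 6406 in replicate 2, which is outside the strongest peaks of both. At bath-44 the rank was 6459 in replicate 1 and 4156 in replicate 2, so replicate 1 did not hold it among its strongest.

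The only bound math gene was math-33, which encodes a deubiquitinating enzyme. It lies on chromosome V, whereas 35 of the 37 math genes lie on chromosome II. Its score was 161, with rank 2309 in replicate 1 and rank 2829 in replicate 2. The summit lay 523 bp upstream of math-33 and 293 bp from the 5′ end of erfa-3, a translation termination factor gene, which was the nearer gene. With each summit given to the nearest 5′ end only, no math gene was bound.

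All 35 math genes of chromosome II lacked a summit in both the optimal and the pooled relaxed list. The same held for all 58 fbxb genes of that chromosome. Of 168 members on chromosome II, 6 were bound (3.57%), and the relaxed list added none. Among other genes there, 19.7% were bound and 36.6% had a summit in the pooled relaxed list. The 6 bound members were bath-38, bath-44, fbxa-24, fbxc-19, fbxc-23 and fbxc-54.

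The 3 bound fbxb genes all had strong peaks. The score at fbxb-85 was 882, with rank 283 in the optimal list, 277 in replicate 1 and 281 in replicate 2. Its summit lay 59 bp upstream of fbxb-85 on chromosome III and in the promoter of the divergent gene hex-3, which encodes a hexosaminidase. At fbxb-58 on chromosome X the score was 708, with rank 348 in replicate 1 and 401 in replicate 2. That summit lay 990 bp upstream, at the far edge of the promoter window, and no other protein-coding 5′ end was nearer. At fbxb-72 on chromosome V the score was 365, with rank 725 in replicate 1 and 1097 in replicate 2, and the summit lay 234 bp upstream in no other promoter.

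Of the fbxc genes, fbxc-23 had the second strongest member peak. Its score was 1890, with rank 126 in the optimal list, 125 in replicate 1 and 123 in replicate 2. The peak at chromosome II 13596534 to 13596987 lay between fbxc-23 and csc-1, which encodes a subunit of the chromosomal passenger complex of mitosis, and the summit was 214 bp from fbxc-23 and 186 bp from csc-1. The other bound members were fbxc-19, with a score of 233, and fbxc-54, with a score of 132. The fbxc-19 summit, 364 bp upstream, lay in the annotated 5′ UTR of the gene fbxa-3 and within 200 bp of the long intergenic RNA gene linc-16. The fbxc-54 summit lay 10 bp downstream of the 5′ end, in its 5′ UTR, and also in the promoter of F23F1.5.

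The 12 bound fbxa genes had mostly weak peaks. The strongest, with a score of 589, was at fbxa-90 on chromosome V, with rank 481 in replicate 1 and 460 in replicate 2. Its summit lay 962 bp upstream of fbxa-90 but 177 bp from the 5′ end of efl-1, which encodes the E2F transcription factor that works with the DRM complex. The remaining fbxa scores lay between 71.9 and 132, and their median together with fbxa-90 was 119. The shared peak of fbxa-11 and fbxa-67 had a score of 132 and that of fbxa-76 and fbxa-77 a score of 126. Then came fbxa-128 with 126, fbxa-145 with 113, fbxa-66 with 113, fbxa-24 with 104, fbxa-63 with 87.9, fbxa-65 with 73.2 and fbxa-64 with 71.9. The fbxa-66 summit was nearer to iffb-1, a translation initiation factor gene, and the fbxa-145 summit lay also in the promoter of F48C1.6.

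Ranks differed between the replicates at several of these. The fbxa-64 peak had rank 4425 in replicate 1 and 8179 in replicate 2, and the upstream fbxa-24 peak had rank 3839 and 8129. The peak at fbxa-128 had rank 2489 in replicate 1 and 4689 in replicate 2. At fbxa-90 the ranks of 481 and 460 lay close together.

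**Figure D3:**
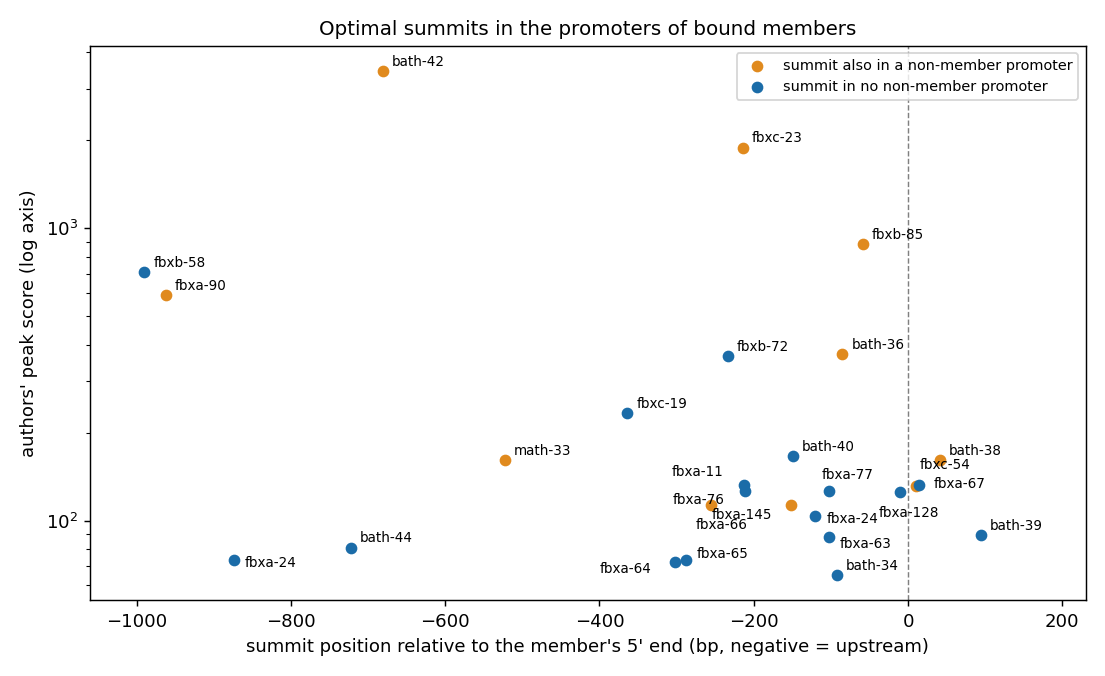
Score (y axis, log scale) against the position of the summit relative to the member's 5′ end (x axis, bp) for the 27 pairs of a bound member and an optimal summit. Orange points are summits that also lie in the promoter of a gene outside the families and blue points are the others; the 3 orange points with the highest scores are bath-42, fbxc-23 and fbxb-85, and most points lie within 300 bp of the 5′ end.

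The positions of the summits follow, with no like counts over other bound genes. The window reaches 1000 bp upstream and only 200 bp downstream, so a high upstream share is built into it. Of the 27 pairs of member and summit, 23 had the summit upstream, 19 lay within 300 bp and 6 lay more than 500 bp away. The median position was -212 bp relative to the 5′ end. Just inside the window were fbxb-58 at 990 bp and fbxa-90 at 962 bp, with scores of 708 and 589. Just outside it was fbxa-167, with a summit 1079 bp upstream and a score of 96.1.

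Some of the summits also lay in the promoter of a second gene, as did those of many other bound genes. The strongest promoter summit of 14 bound members (53.8%) lay in the promoter of a second protein-coding gene, against 47.2% of other bound genes, counted where all promoter summits did so. For 10 members the second gene was outside the families, a count with no like value here for other bound genes. These second genes were prp-8, cyn-7, F52H3.11, efl-1, F48C1.6, iffb-1, hex-3, csc-1, F23F1.5 and erfa-3. The median score of those 10 members was 266, and it was 126 for the other 16. The summit was nearest to the member itself for 19 of the 26 (73.1%), against 75.6% of other bound genes. The 7 exceptions were bath-42, fbxa-11, fbxa-66, fbxa-76, fbxa-90, fbxc-23 and math-33, of which fbxa-11 and fbxa-76 were nearer only to another fbxa gene.

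Bound members lay farther from other members than unbound ones did, by the median. The median distance from the 5′ end to that of the nearest other member was 46378 bp for bound members and 3241 bp for the 369 unbound ones. Of 113 members with no other member within 10 kb, 17 were bound (15.04%), against 3700 of 18789 other genes with no member that near (19.7%). Of 282 members with one or more, 9 were bound (3.19%), against 105 of 789 other genes with a member within 10 kb (13.3%). Among the bath genes the bound counts, without and with such a neighbour, were 5 of 13 and 2 of 23, and among the fbxb genes 3 of 29 and 0 of 75. Among the fbxa genes the counts were 6 of 55 without and 6 of 115 with such a neighbour.

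Chromosomes were cut into 3 equal sections to see where bound members lay. Of the 15 members in a middle section 6 were bound (40.0%), against 23.1% of other genes there. Those 6 were bath-38, bath-39, bath-42, bath-44, fbxa-145 and math-33. Of 380 members in the outer sections 20 were bound (5.26%), against 17.1% of other genes. When other genes were weighted to the chromosomes and sections of the members, 17.7% of them were bound, against 6.58% of the members. The part of position and of clustering in the counts was not tested. By chromosome, 9 of 71 members on III, 7 of 90 on V, 3 of 21 on I, 1 of 17 on X and 0 of 28 on IV were bound. The share of other genes was 31.8% on III, 11.5% on V, 28.3% on I, 14.2% on X and 17.9% on IV.

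**Figure D4:**
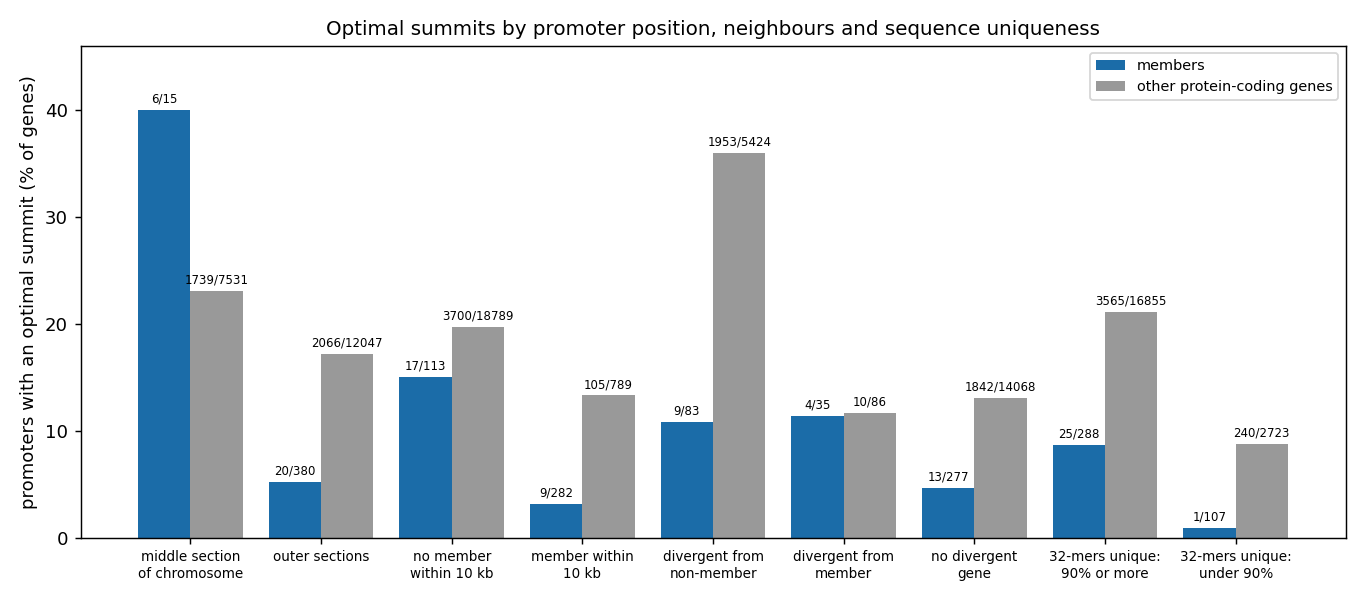
Share of promoters with an optimal summit (y axis, % of genes) for members (blue) and other protein-coding genes (grey) split by chromosome section, by members within 10 kb, by the gene upstream on the other strand and by uniqueness of the promoter's 32-mers, with bound and total genes above each bar. Members lie below other genes in each split except the middle sections, where 6 of 15 were bound, and they lie level with them in promoters divergent from a member, with 4 of 35.

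The genes were also split by their neighbour on the other strand. A promoter was called divergent when a protein-coding gene on the opposite strand began within 2000 bp upstream or 200 bp downstream. Of 83 members divergent from a gene outside the families 9 were bound (10.8%), against 36.0% of 5424 other genes divergent from such a gene. Of 277 members with no divergent gene 13 were bound (4.69%), against 13.1% of other genes. Of 35 members divergent from another member 4 were bound (11.4%), against 10 of 86 other genes divergent from a member (11.6%). These 4 members were the fbxa-11/fbxa-67 and fbxa-76/fbxa-77 pairs, each pair sharing a summit.

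Repeated sequence also moved with the counts. Reads from near-identical copies can be lost or misplaced, and how the authors treated such reads was not stated. The share of a promoter's 32-mers that occur once in the nuclear genome had a median of 97.9% over members and 100% over other genes. Of 107 members under 90% only fbxa-24 was bound (0.935%), against 8.81% of other genes under 90%. Of 288 members at 90% or more 25 were bound (8.68%), against 21.2% of other genes. The difference was also present among the promoters at 90% or more; beyond that, the part of repeated sequence was not tested. The lower fbxa-24 score, at its upstream summit, came from fully unique sequence, whereas 34.3% of the 32-mers under the other fbxa-24 summit were unique. The median GC content of the promoters was 35.3% in bound members and 35.1% in unbound members.

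Several fbxa summits lay on related sequence. The 201 bp windows around the summits at fbxa-64 and fbxa-65, which lie 68333 bp apart on chromosome V, aligned over 103 positions with 80.6% identity. The window at fbxa-11 and fbxa-67 on chromosome III aligned with that at fbxa-65 over 56 positions with 83.9% identity, and the upstream fbxa-24 summit on chromosome II aligned with both chromosome V windows over 22 positions with 95.5% identity. In the following windows, shown because they contain the stretch common to all 4 sites, capitals mark the longest string that all of them hold, TTTGTCGTCAA. For fbxa-11 only 30 bases are shown.
fbxa-64 (chrV:3278403-3278503): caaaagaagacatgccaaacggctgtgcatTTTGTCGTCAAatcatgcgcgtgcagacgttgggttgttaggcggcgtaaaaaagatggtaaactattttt
fbxa-65 (chrV:3346722-3346822): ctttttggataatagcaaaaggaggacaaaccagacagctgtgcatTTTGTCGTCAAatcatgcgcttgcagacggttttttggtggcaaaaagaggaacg
fbxa-24 (chrII:3815602-3815702): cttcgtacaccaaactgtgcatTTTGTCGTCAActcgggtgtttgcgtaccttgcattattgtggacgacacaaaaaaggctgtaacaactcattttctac
fbxa-11 (chrIII:950641-950670): gcaaTTTGTCGTCAAatcatgcgcctgcgt

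The string TTTGTCGTCAA was picked after the windows had been compared, so its presence at these genes is built in. Read on both strands, it was in 44 of all 19973 promoters (0.220%). It was also in 8 of the 6312 optimal summit windows with 50 bp on either side (0.127%), not a comparable share because promoters are longer. Among members it was in 5 promoters, those of fbxa-11, fbxa-24, fbxa-64, fbxa-65 and fbxa-67, all bound, and in no unbound member. Of 39 other genes with the string 16 were bound (41.0%), against 19.4% of all other genes. Bound means a summit anywhere in the promoter, not at the string. The 8 optimal windows with the string include the 4 it was picked from, so few are left for these 16 genes. The share of 41.0% therefore cannot tell whether LSY-2 lay at the string.

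The second related group was fbxa-63 with the fbxa-76/fbxa-77 pair, a few kilobases apart on chromosome III. Their windows aligned over 119 positions with 73.1% identity. The longest string shared by their summit windows, GAGACGCAGAGAAAAA, contains the 6-mer ACGCAG and is in capitals here.
fbxa-63 (chrIII:1243355-1243455): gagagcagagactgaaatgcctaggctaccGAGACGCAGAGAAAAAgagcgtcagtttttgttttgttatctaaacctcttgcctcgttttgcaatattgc
fbxa-77 (chrIII:1249323-1249423): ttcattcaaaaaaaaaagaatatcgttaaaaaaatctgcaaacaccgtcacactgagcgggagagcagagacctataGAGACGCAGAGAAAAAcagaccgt

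This string, too, was picked from the bound windows. It was in 16 of all promoters (0.0801%) and in 9 of the optimal summit windows (0.143%), which are shorter than promoters. The members that held it were fbxa-63, fbxa-76 and fbxa-77. Of 13 other genes with it 5 were bound (38.5%), against 19.4% of all other genes, again with a summit anywhere in the promoter.

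The 6-mers known from the whole list were also under member summits. ACGCAG was in 9 of the 25 windows (36.0%), against 14.6% of all optimal windows and 3.10% of windows of the same length centred 150 bp upstream of every protein-coding 5′ end. GAGAGA was in 7 windows (28%), against 27.1% and 8.42%. ACCGTA was in 2 windows, those of bath-42 and fbxc-23, the strongest member peaks, against 6.88% of all optimal windows and 3.26% of promoter windows. With 25 windows these shares rest on a few sites, and a match is no proof of a binding site. The 9 windows with ACGCAG include those of fbxa-63 and of the fbxa-76/fbxa-77 pair, which lie on related sequence and are not independent.

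The 9 members with a pooled relaxed but no optimal summit had low scores. They were bath-15, fbxa-140, fbxa-89, fbxa-137, fbxa-61, fbxa-94, fbxb-77, fbxc-45 and math-46. The highest pooled score was 56.5 at fbxa-140, rank 6471, just past the 6312 of the optimal list. It was 42.4 at fbxa-89, 37.3 at bath-15, 36.7 at fbxc-45, 31.1 at fbxa-137, 27.5 at fbxa-61 and 26.05 at fbxb-77. At fbxa-94 and math-46 the scores were 8.95 and 9.83, and neither replicate had a peak within 200 bp.

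Some members had a strong peak in a replicate and none in the pooled list. At fbxa-141 the peak ranked 3620 in replicate 1, with its summit 773 bp upstream, and 2911 in replicate 2, at 794 bp, and no pooled peak lay within 200 bp. At fbxc-44 it ranked 3389 in replicate 1 and 3258 in replicate 2, at 323 bp and 332 bp. Among all peaks that were strongest in both replicates, 47 of 5072 (0.927%) of those of replicate 1 had no pooled peak within 200 bp. Among all strongest peaks of a replicate, shared or not, it was 3.36% in replicate 1 and 2.77% in replicate 2. In member promoters 3 strongest peaks of replicate 1 had no such pooled peak and 25 had one. The counts in replicate 2 were 5 and 27, a peak in several promoters counting for each. The difference was not tested. The peak at fbxb-88, 393 bp upstream, ranked 1138 in replicate 2 and had no counterpart in replicate 1. The peak at fbxc-33, 251 bp upstream, ranked 2331 in replicate 1 and had none in replicate 2. In replicate 2 the peaks at fbxa-37, 213 bp upstream, and fbxa-167, 121 bp upstream, ranked 3132 and 4665, also with no pooled peak within 200 bp.

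Other genes of these ubiquitin ligases were listed as well, both the partners of the adaptors and adaptors outside the 5 families. The list had 50 genes for cullins, their partners and regulators, Skp1-like proteins, and F-box or BTB proteins with other names. Of these, 48 were matched by symbol and 13 of the matched genes (27.1%) were bound, against 19.2% of all genes. Outside the Skp1-like skr genes it was 11 of 28 (39.3%), and among the skr genes 2 of 20, skr-1 and skr-19. The strongest were rbx-1, the RING subunit gene of cullin ligases, with a score of 525, and dcn-1, whose product aids the attachment of the ubiquitin-like protein NED-8 to cullins, with 479. The scores were 386 at lin-23 and 371 at sel-10, both F-box genes of the conserved kind.

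In the CUL-3 branch the cullin gene and the adaptor gene mel-26 were bound, and the listed gene kel-8 was not. The score was 313 at cul-3 itself and 237 at mel-26, whose MATH/BTB product marks the microtubule severing protein MEI-1 for destruction in the embryo. The NED-8 pathway genes ubc-12 and ned-8 had 234 and 202, and the signalosome gene csn-1 had 233. The gene cul-2 had 89.9, and prom-1, an F-box gene of meiosis, had 59.4, near the lowest optimal score of 58.0. No promoter peak of cul-2, skr-19 or prom-1 was among the strongest of replicate 2. None of the other matched genes had an optimal summit, among them csn-2, csn-3, csn-4, csn-5, csn-6, cul-4 and cul-5. The same held for ula-1, rfl-1, cand-1, dre-1, fsn-1 and mfb-1, so the bound genes do not stand for whole branches. The scaffold gene cul-1 of the SCF complex had only a relaxed summit, with a score of 34.5. The gene rbx-2 had a peak among the strongest of both replicates and no pooled summit in its promoter. The genes cul-6, skr-3, skr-4 and skr-5, which act with F-box proteins in the response to intracellular pathogens, had no summit in the optimal or the pooled relaxed list. The list mixes conserved single genes with the expanded skr family, and it was not tested.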

How the data were processed

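LSY-2 ChIP-seq peak lists from 2 replicates were used as the authors deposited them. Per the labels and the text deposited with the samples, lists of 30000 peaks and background (relaxed lists) were made for each replicate and for both pooled, and the optimal list of 6312 peaks was derived from these 3 by the IDR procedure. The peak caller, aligner, IDR threshold and treatment of repeated reads: not given in the sources used here. Every peak has a score and a −log10 q-value as deposited by the authors; the q-value is 1 single value over the whole optimal list and was not used to rank. No read counts were used, so the depth is unknown and no counting interval can be given.

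Only the ce11 lists entered; the ce10 lists were left out. A summit was the start plus the summit offset. Genes came from Ensembl release 115 (WBcel235, which is ce11), with symbols and types as given there, and sequence from RefSeq. A summit in several promoters counted for each. Unique 32-mers were counted over the nuclear chromosomes on both strands. Windows were aligned with blastn 2.17.0 at an E-value of 0.001. Python 3.11.15 was used with pandas 2.3.3 and numpy 2.4.6. The assignment of summits to promoters was checked on simulated data.

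The members, gene lists and splits were chosen with earlier results of these data known. All bound members are named, with per family the strongest 5 in detail, the 3 strongest with only a relaxed summit and all bound ligase partners; members with a strong peak in a replicate but not in the pooled list, and the unbound genes of the pathogen response, were named after their values were seen. With 1 group there is no test, and promoters are not replicates.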

Additional observations from a re-analysis of the deposited data

How the results depend on the processing

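The settings tried were narrower and wider promoter windows, the 5′ ends of all transcripts, the nearest 5′ end only, overlap of the whole peak, the strongest 50% of each list, support by both replicates and each replicate alone. Of 113 values recomputed in this way, 12 lay more than 1.5 times from the reported one. With the strongest 50% of the optimal list 17 members were bound in place of 26, among them 6 fbxa and 4 bath genes, and 11 were nearest to their own summit in place of 19. The math counts moved most, because they rest on 1 gene in the optimal and 2 in the pooled relaxed list. With the window of 500 bp upstream and 100 bp downstream they were 0 and 0, with the nearest 5′ end only 0 and 1, and with the strongest 50% of the relaxed list 1. Leaving out 1 replicate gave 27 to 31 bound members, 13 to 16 of them fbxa, 3 to 4 fbxb, 4 to 5 fbxc, 1 to 1 math and 5 to 6 bath, and 19 to 21 nearest to their own summit. It gave 41 to 42 members with a relaxed summit, 21 to 22 of them fbxa, 5 to 5 fbxb, 5 to 6 fbxc, 1 to 1 math and 8 to 9 bath. The wider window, 2000 bp upstream to 500 bp downstream, gave 31 bound members and 43 with a relaxed summit. The median score of bound members lay between 126 and 166 over its alternatives. No paired analysis was possible because there is 1 group. With no read counts, a missing summit says only that no peak was listed there.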
